A study of Mus musculus with 8 samples.

Results

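A set of 10 genes of the unfolded protein response and the integrated stress response were followed in sorted mouse microglia. The genes were chosen by name and matched by symbol to the gene identifiers of the count files: the sensors Ern1 and Atf6, the transcription factors Xbp1, Atf4 and Ddit3, the endoplasmic reticulum (ER) chaperones Hspa5, Hsp90b1 and Dnajb9, and the ATF4 and CHOP targets Trib3 and Sesn2. These are 10 of 41388 identifiers, and all 10 were among the 12002 genes with enough counts to be tested. RNA was sequenced from adult C57BL/6 mice with neuromyelitis optica (NMO), in which inflammation damages the optic nerves and spinal cord, and from unmanipulated control mice. The cells were microglia, macrophages that live in the brain and spinal cord, sorted with CD11b, CD45 and CD11c, the integrin encoded by Itgax. The 3 groups were CD11c+ microglia of NMO mice (NMO CD11c+, n = 2 libraries), CD11c- microglia of NMO mice (NMO CD11c-, n = 3) and microglia of control mice (control, n = 3). For the control cells 1 label gives CD11c negative and another gives total microglia. The labels do not say how NMO was induced, the exact age, the sex, or whether each library came from a separate mouse. Every p-value here therefore measures spread among these libraries only, which may be technical.

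Proteins that misfold in the ER are sensed by 3 branches. IRE1, encoded by Ern1, cuts Xbp1 mRNA, whose ends the RTCB ligase joins into the active form. ATF6 is cleaved in the Golgi and then acts as a transcription factor, while PERK phosphorylates eIF2alpha. PERK shares that last step with the kinases GCN2, PKR and HRI, and their common arm is the integrated stress response, in which general translation falls and ATF4 is translated. ATF4 raises genes for amino acid supply and CHOP (Ddit3), and PPP1R15A brings the phosphatase that ends the signal. In macrophages and microglia these pathways are known to be engaged by a high secretory load and by inflammatory stimuli. Gene counts add spliced and unspliced Xbp1 together and do not measure kinase activity, Atf6 cleavage or the translation of Atf4.

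Libraries held 4943207 to 9246061 counts, with the lowest totals in NMO CD11c+ and the highest in control. Itgax was at 188 and 181 CPM (counts scaled to a common library total) in NMO CD11c+, at 35.5, 41.3 and 40.0 CPM in NMO CD11c- and at 30.6, 32.1 and 31.0 CPM in control, in the order of the sort. The summed level of 10 microglia markers was 32732 to 34482 CPM in NMO CD11c+, 34203 to 42389 CPM in NMO CD11c- and 42003 to 46302 CPM in control. None of these markers was at 0 in any library. In NMO CD11c+ against control 4 of the 10 were called lower (all genes 3.36%) and 0 higher, with 8 lower at an unadjusted p under 0.05. In the other comparisons 0 were called. The summed level of 10 neutrophil markers was 17.0 to 21.3 CPM in NMO CD11c+ (Ly6g at 0 counts), 2218 to 11520 CPM in NMO CD11c- and 923 to 1905 CPM in control. All 10 were called lower in NMO CD11c+ against either other group, and in NMO CD11c- against control 10 of 10 had an unadjusted p under 0.05 in the higher direction, with 1 called. The summed level of 8 monocyte markers was 38.8 to 39.0 CPM in NMO CD11c+, 187 to 979 CPM in NMO CD11c- and 77.7 to 151 CPM in control. Of the 7 that were tested, 3 were called higher in NMO CD11c- against control (all genes 3%). Another 2 calls were lower in NMO CD11c+ against NMO CD11c-, and NMO CD11c+ against control gave 1 higher and 1 lower. Plasma and B cell markers summed to between 38.4 and 48.2 CPM in every library, with Pou2af1 at 0 in all 3 groups. The rank correlation, over genes, of a gene's deviation with its GC content was 0.59 in NMO CD11c+ replicate 1 and between -0.30 and -0.038 in the other libraries. The NMO libraries carry numbers 7 to 12 in their titles and the control libraries 21 to 23, so disease cannot be told apart from any difference between those runs of numbers. The part that other cells, GC content or library numbering have in the results below was not tested.

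Promoter letters known to be read by these pathways are shown because the later paragraphs set the genes that carry them beside their values. The ER stress element (ERSE), bound by NF-Y together with ATF6 or XBP1, was searched as CCAAT, any 9 bases and CCACG. ERSE-II was searched as ATTGG, any base and CCACG, the unfolded protein response element as TGACGTGG and the C/EBP-ATF element read by ATF4 and CHOP as TGATGNAA, all on both strands. The windows were RefSeq's, from 250 bases before to 50 bases after each listed start on GRCm38.p6, and 9 of the 10 genes had at least 1 (Atf6 had none). A gene can have more than 1 window. Shares over all genes are therefore of windows, while a named gene counts if any of its windows holds the motif. ERSE was in 0.119% of 32851 windows of all genes, and in 2 of the 9: once before Hspa5 and at a pair of places before Hsp90b1. The C/EBP-ATF element was in 3.97% of all windows and in 1 of the 9, Trib3, where it begins 15 bases after RefSeq's start. ERSE-II (0.0365% of all windows) and the unfolded protein response element (0.676%) were in none of the 9, and no match says only that these letters are not in these windows. Among 106 other genes of the pathway with a window, 7 held ERSE, 2 ERSE-II, 6 the unfolded protein response element and 16 the C/EBP-ATF element. The sites of the members and of Calr, Herpud1 and Atf3, genes described below, are given on the strand that reads the motif, with its fixed letters in capitals.
Hspa5 ERSE, chr2:34772020-34772048, plus strand: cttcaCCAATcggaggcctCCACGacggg
Hsp90b1 ERSE, chr10:86705528-86705556, plus strand: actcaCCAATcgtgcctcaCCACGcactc
Hsp90b1 ERSE, chr10:86705633-86705661, minus strand: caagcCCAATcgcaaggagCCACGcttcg
Calr ERSE, chr8:84847070-84847098, plus strand: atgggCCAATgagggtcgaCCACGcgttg
Herpud1 ERSE-II, chr8:94386368-94386396, plus strand: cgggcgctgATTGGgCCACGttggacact
Herpud1 C/EBP-ATF element, chr8:94386308-94386333, minus strand: ggtgcgggcTGATGcAAcccgccgtg
Atf3 C/EBP-ATF element, chr1:191183427-191183452, plus strand: cggacttggTGATGcAAgtgcgagaa
Trib3 C/EBP-ATF element, chr2:152344030-152344055, plus strand: ccgcccggcTGATGtAAacctgagct
The 4 ERSE sites share CCAAT and CCACG by construction of the search, while the 9 bases between these blocks differ in each. None of the printed sites overlaps another motif of the search.

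Per kilobase of exon, the 10 genes spanned a wide range of levels in control libraries. Hspa5 was highest at 488 ± 210 CPM per kb (SD, n = 3 throughout this paragraph), followed by Hsp90b1 at 205 ± 15.1 and Atf4 at 125 ± 39.6 CPM per kb. Xbp1 stood at 72.6 ± 6.05, Dnajb9 at 33.4 ± 7.69, Ddit3 at 19.4 ± 4.45 and Atf6 at 17.6 ± 0.486 CPM per kb. The lowest were Ern1 at 9.29 ± 0.345, Sesn2 at 7.42 ± 1.03 and Trib3 at 0.478 ± 0.220 CPM per kb. Ddit3 and Atf6 did not differ beyond their spread, while the other neighbours in this order were further apart than the larger of their SDs.

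Of the 10 genes, 1 was called in any comparison: Xbp1 was lower in NMO CD11c+ than in control. Calls are edgeR quasi-likelihood tests with Benjamini-Hochberg adjustment over all tested genes, at an adjusted p under 0.05, and every adjusted p here is of that kind unless another test is named. In NMO CD11c+ against NMO CD11c- no member was called, where 0.283% of tested genes were called, 0.1% higher and 0.183% lower. Nor was any called in NMO CD11c- against control, where 3.72% of tested genes were (3% higher, 0.717% lower). The 1 call in NMO CD11c+ against control stands beside 10.2% of tested genes called (6.85% higher, 3.36% lower), so 1 of 10 members is close to the share over all genes. At an unadjusted p under 0.05 the members gave 3 higher and 0 lower in the first comparison (all genes 15.4%, of which 7.9% higher and 7.54% lower), 0 higher and 2 lower in the second (all genes 18.8%, 11.7% and 7.02%), and 2 higher and 2 lower in the third (all genes 28.8%, 15.6% and 13.2%). DESeq2 called 0, 0 and 1 of the 10, and the edgeR exact test called 1 (Trib3, higher), 0 and 1. With NMO CD11c+ replicate 2 left out the calls were 1 higher and 2 lower in the first comparison and 1 higher and 3 lower in the third, resting on the library with the GC trend. In that fit 11.5% of all tested genes were called higher and 12.7% lower in the first comparison, and 16.2% and 16.5% in the third. The median log2 fold change of the 10 was 0.27, -0.22 and -0.09 in these comparisons, beside 0.0097, -0.0040 and 0.0061 over all tested genes. The last 2 comparisons share the control libraries, and the first and last share the NMO CD11c+ libraries. The first 2 share the NMO CD11c- libraries with opposite sign, so low values there alone raise the first and lower the second.

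**Figure D1:**
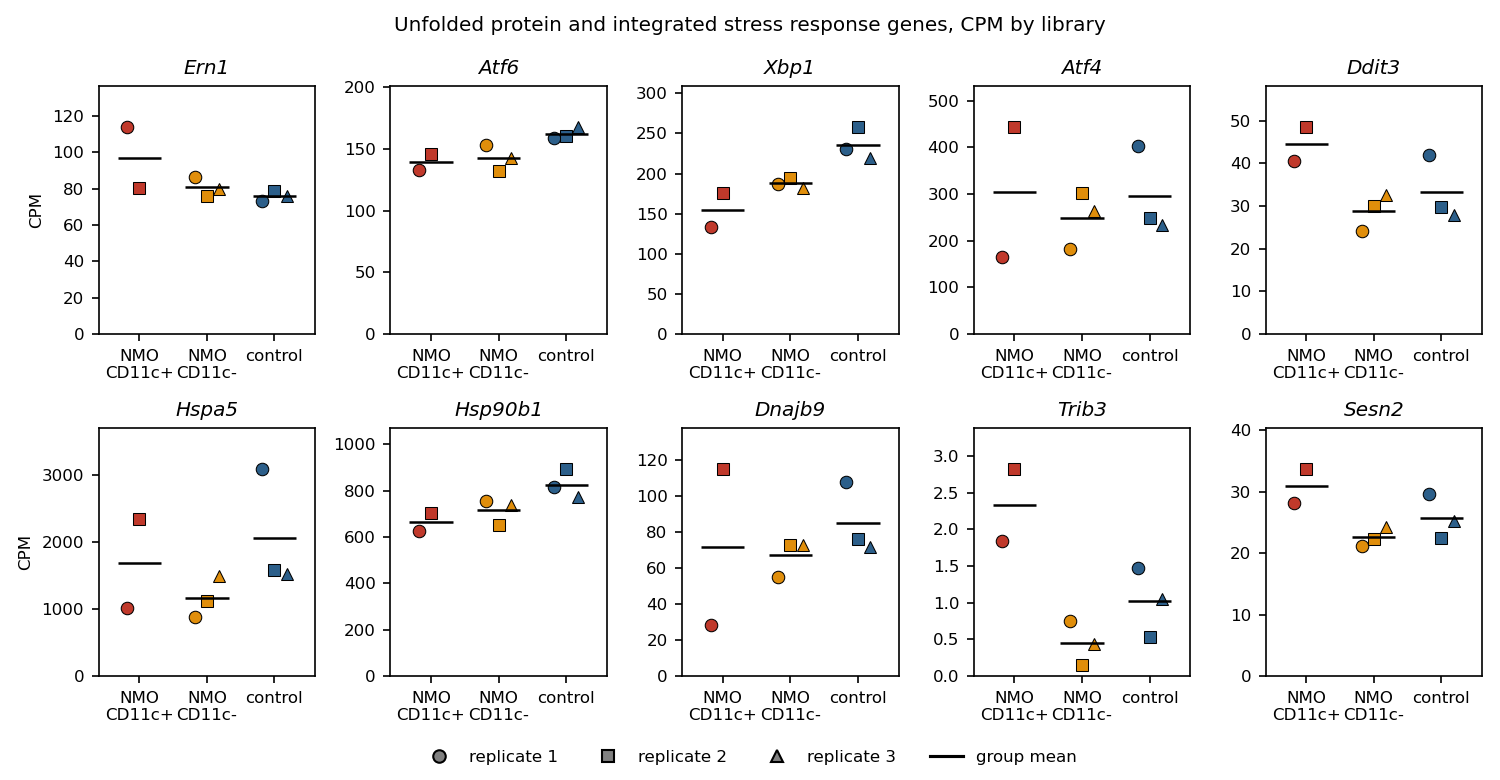
CPM of the 10 genes (vertical axes, linear from 0) in each library of NMO CD11c+, NMO CD11c- and control (horizontal axes), with points for libraries and bars for group means. The NMO CD11c+ points of Xbp1 (133 and 175 CPM) lie under all control points (219 to 258 CPM), while the libraries of one group lie far apart for Hspa5, Atf4 and Dnajb9.

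Ern1, the oldest of the sensors in evolution and the nuclease that cuts Xbp1 mRNA, lies on chromosome 11 (106394650 to 106487852, minus strand, GRCm38). It had 114 and 80.3 CPM in NMO CD11c+, 86.2, 76.2 and 79.8 CPM in NMO CD11c- and 73.0, 78.6 and 76.2 CPM in control. Both NMO CD11c+ libraries were above every control library, and replicate 1 alone stood clear of the other 7 libraries. The fitted log2 fold change was 0.26 in NMO CD11c+ against NMO CD11c- (SE 0.141, adjusted p = 0.380), 0.09 in NMO CD11c- against control (SE 0.126, adjusted p = 0.766) and 0.35 in NMO CD11c+ against control (SE 0.140, adjusted p = 0.132). Without NMO CD11c+ replicate 2, the remaining library gave a call in both comparisons of that group, at 0.49 (adjusted p = 0.00815) against NMO CD11c- and 0.58 (adjusted p = 0.00219) against control, with its spread taken from the other groups. Without replicate 1 the same values were -0.0069 and 0.08.

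Atf6, the membrane-bound factor that is released by cleavage, lies on chromosome 1 (170704674 to 170867771, minus strand). It had 133 and 146 CPM in NMO CD11c+, 153, 132 and 143 CPM in NMO CD11c- and 159, 161 and 168 CPM in control. Every NMO library lay below every control library, and the NMO groups overlapped. The log2 fold changes were -0.03 in NMO CD11c+ against NMO CD11c- (95% interval -0.27 to 0.20), -0.19 in NMO CD11c- against control (-0.40 to 0.02, adjusted p = 0.317) and -0.22 in NMO CD11c+ against control (-0.45 to 0.02, adjusted p = 0.203). It was the steadiest of the 10, with an SD within groups of 0.084 on the log2 CPM scale. Over the 9801 genes with a mean of at least 5 CPM the median of that SD was 0.173.

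Xbp1, the factor made from the spliced mRNA, which drives genes of ER folding and secretion, lies on chromosome 11 (5520659 to 5525893, plus strand). It had 133 and 175 CPM in NMO CD11c+, 187, 195 and 182 CPM in NMO CD11c- and 231, 258 and 219 CPM in control. The 3 groups did not overlap, with NMO CD11c+ lowest and control highest. Xbp1 fell in NMO CD11c+ against control, to a mean of 154 ± 29.9 CPM (SD, n = 2) against 236 ± 19.6 CPM (SD, n = 3), or -0.61 on the log2 scale (SE 0.136, 95% interval -0.92 to -0.31, adjusted p = 0.0211). Against NMO CD11c-, the value in NMO CD11c+ was -0.28 (SE 0.135, -0.58 to 0.02, adjusted p = 0.343), and in NMO CD11c- against control it was -0.33 (SE 0.119, -0.60 to -0.07, adjusted p = 0.163), and neither passed. Libraries of the groups did not overlap in the lower direction for 14.2% of tested genes in NMO CD11c+ against NMO CD11c-, 16.1% in NMO CD11c- against control and 21.5% in NMO CD11c+ against control.

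The call on Xbp1 depended on single libraries. Without NMO CD11c+ replicate 1 the log2 fold change in NMO CD11c+ against control was -0.43 (adjusted p = 0.0579), without control replicate 1 it was -0.63 (adjusted p = 0.0653), without control replicate 2 it was -0.55 (adjusted p = 0.0815), and in a fit of these 2 groups alone it was -0.61 (adjusted p = 0.0730). Without NMO CD11c+ replicate 2 it was -0.83 (adjusted p = 0.00103). Xbp1 was also called lower in NMO CD11c- against control where NMO CD11c+ replicate 1 (adjusted p = 0.0317) or replicate 2 (adjusted p = 0.0317) was left out or only these 2 groups were fitted (adjusted p = 0.0292), at values of -0.33 in each. Against NMO CD11c-, the value was -0.50 and called without NMO CD11c+ replicate 2 (adjusted p = 0.0161), and -0.098 without replicate 1 (adjusted p = 0.813). All estimates were negative under every alternative run. Xbp1 is strongly expressed in plasma cells. Plasma and B cell markers summed to 40.7 and 46.6 CPM in NMO CD11c+ against 38.4 to 46.2 CPM in control. Of these 9 markers 2 had enough counts to be tested and 3 to 6 were at 0 in each library, so the sum rests on few genes. Whether plasma cells have a part in the Xbp1 values was not tested. In NMO CD11c+ Mzb1, Ms4a1 and Pou2af1 were at 0, and in control Sdc1 and Pou2af1 were. As these are bulk samples, fewer cells of a type and less RNA per cell cannot be told apart.

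Atf4, whose protein carries the integrated stress response to its target genes, lies on chromosome 15 (80255184 to 80257541, plus strand). It had 165 and 443 CPM in NMO CD11c+, 183, 303 and 263 CPM in NMO CD11c- and 402, 248 and 234 CPM in control. The lowest and the highest of the 8 libraries were both NMO CD11c+, and all groups overlapped. The log2 fold changes were 0.29 in NMO CD11c+ against NMO CD11c- (95% interval -0.56 to 1.13), -0.24 in NMO CD11c- against control (-0.997 to 0.514) and 0.04 in NMO CD11c+ against control (-0.80 to 0.89), with adjusted p of 0.720, 0.759 and 0.952. All 3 intervals span 0.

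Ddit3, which encodes CHOP, the factor linked to cell death after prolonged ER stress, lies on chromosome 10 (127290774 to 127296288, plus strand). It had 40.4 and 48.4 CPM in NMO CD11c+, 24.1, 30.1 and 32.6 CPM in NMO CD11c- and 41.9, 29.7 and 28.0 CPM in control. Both NMO CD11c+ libraries were above all NMO CD11c- libraries, and control replicate 1 reached the NMO CD11c+ range. The difference in NMO CD11c+ against NMO CD11c- was 0.62 (SE 0.198, 95% interval 0.18 to 1.06, unadjusted p = 0.0105, adjusted p = 0.209, edgeR quasi-likelihood test), and it was called with no low-count filter (0.60, adjusted p = 0.0225). The value was -0.20 in NMO CD11c- against control (SE 0.177, adjusted p = 0.606) and 0.42 in NMO CD11c+ against control (SE 0.195, adjusted p = 0.185). The exons of Ddit3 share 68 bases with Mars on the opposite strand, and since the strand setting is not given, reads there cannot be told apart. Mars itself, a tRNA synthetase gene, is among the tRNA synthetases described below.

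Hspa5, which encodes BiP, the chaperone that holds all 3 sensors inactive, lies on chromosome 2 (34771970 to 34777547, plus strand). Its ERSE site printed above lies 65 to 47 bases before RefSeq's start, inside the longer span that GENCODE gives the gene. Hspa5 had 1015 and 2345 CPM in NMO CD11c+, 884, 1125 and 1494 CPM in NMO CD11c- and 3086, 1581 and 1522 CPM in control. The NMO CD11c+ libraries lay 2.31-fold apart, control replicate 1 stood above the other 7 libraries, and every NMO CD11c- library lay below every control library, the closest pair being 1494 and 1522 CPM. The value in NMO CD11c- against control was -0.82 (SE 0.351, 95% interval -1.60 to -0.040, unadjusted p = 0.0412, adjusted p = 0.240, edgeR quasi-likelihood test) and did not pass. It was -0.41 without control replicate 1 and -1.04 without NMO CD11c- replicate 3, called in neither, and was called with no low-count filter (adjusted p = 0.000172). It was 0.53 in NMO CD11c+ against NMO CD11c- (SE 0.386, adjusted p = 0.501) and -0.30 in NMO CD11c+ against control (SE 0.393, adjusted p = 0.651).

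Hsp90b1, which encodes GRP94, the ER member of the HSP90 family needed for Toll-like receptors and integrins to fold, lies on chromosome 10 (86690209 to 86705509, minus strand). It had 625 and 704 CPM in NMO CD11c+, 757, 651 and 739 CPM in NMO CD11c- and 816, 892 and 771 CPM in control. As for Atf6, every NMO library lay below every control library and the NMO groups overlapped. The log2 fold changes were -0.11 in NMO CD11c+ against NMO CD11c- (SE 0.129, adjusted p = 0.685), -0.21 in NMO CD11c- against control (SE 0.115, adjusted p = 0.369) and -0.32 in NMO CD11c+ against control (SE 0.129, 95% interval -0.60 to -0.03, adjusted p = 0.140). The last was -0.41 (adjusted p = 0.0408) without NMO CD11c+ replicate 2. Its exons share 415 bases with the pseudogene 1810014B01Rik on the opposite strand, which had 185 counts over all libraries against 42367 for Hsp90b1.

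Dnajb9, which encodes ERdj4, a BiP co-chaperone and target of spliced XBP1 that also represses IRE1, lies on chromosome 12 (44205559 to 44210326, minus strand). It had 28.2 and 115 CPM in NMO CD11c+, 55.1, 72.9 and 72.7 CPM in NMO CD11c- and 108, 76.1 and 71.7 CPM in control. The NMO CD11c+ libraries were 4.07-fold apart and held both the lowest and the highest value of the 8. The log2 fold changes were 0.11 in NMO CD11c+ against NMO CD11c- (95% interval -0.85 to 1.06), -0.35 in NMO CD11c- against control (-1.18 to 0.49) and -0.24 in NMO CD11c+ against control (-1.19 to 0.70), with adjusted p of 0.917, 0.681 and 0.740. Without NMO CD11c+ replicate 2 Dnajb9 was called lower in that group, at -1.25 against NMO CD11c- (adjusted p = 0.0122) and -1.60 against control (adjusted p = 0.00234). Without replicate 1 the values were positive, 0.78 and 0.43, and not called.

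Trib3, a pseudokinase induced by ATF4 and CHOP that damps their output, lies on chromosome 2 (152337422 to 152344032, minus strand), with the C/EBP-ATF element printed above at its start. It had 9 and 16 counts (1.84 and 2.82 CPM) in NMO CD11c+, 5, 1 and 3 counts (0.748, 0.151 and 0.441 CPM) in NMO CD11c- and 12, 5 and 8 counts (1.47, 0.536 and 1.05 CPM) in control. Both NMO CD11c+ libraries were above the other 6, at a level where each value rests on few reads. The fitted log2 fold change in NMO CD11c+ against NMO CD11c- was 2.35 (SE 0.627, 95% interval 0.95 to 3.74, unadjusted p = 0.00378), the largest of the 30 member values, with an adjusted p of 0.156 over all genes in the edgeR quasi-likelihood test and 0.0181 in the edgeR exact test, and 0.0231 with no low-count filter. The value was -1.13 in NMO CD11c- against control (SE 0.616, adjusted p = 0.360) and 1.21 in NMO CD11c+ against control (SE 0.542, adjusted p = 0.171). Trib3 had 59 counts over all 8 libraries.

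Sesn2, a stress-induced inhibitor of mTORC1 that senses leucine, lies on chromosome 4 (132492032 to 132510501, minus strand). It had 28.2 and 33.6 CPM in NMO CD11c+, 21.2, 22.3 and 24.2 CPM in NMO CD11c- and 29.6, 22.5 and 25.2 CPM in control. Both NMO CD11c+ libraries were above all NMO CD11c- libraries, and control replicate 1 reached the NMO CD11c+ range. The log2 fold change in NMO CD11c+ against NMO CD11c- was 0.45 (SE 0.156, 95% interval 0.11 to 0.80, unadjusted p = 0.0153, adjusted p = 0.235, edgeR quasi-likelihood test). It was -0.19 in NMO CD11c- against control (SE 0.138, adjusted p = 0.512) and 0.27 in NMO CD11c+ against control (SE 0.154, adjusted p = 0.278).

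Set beside each other, the 3 members with non-overlapping, higher values in NMO CD11c+ than in NMO CD11c- were Ddit3, Trib3 and Sesn2, where 13.8% of tested genes had that order. Of the 10 estimates 9 were negative in NMO CD11c- against control, where the median log2 fold change over all tested genes was -0.0040. That comparison uses the same NMO CD11c- libraries with opposite sign, so these patterns are not independent. Atf6, Xbp1, Hspa5 and Hsp90b1 did not overlap in the lower direction there (all genes 16.1%). No member was non-overlapping in the higher direction there, against 17.6% of tested genes. Ern1 and Trib3 did not overlap in the higher direction in NMO CD11c+ against control (all genes 22.2%), and Atf6, Xbp1 and Hsp90b1 in the lower (all genes 21.5%).

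**Figure D2:**
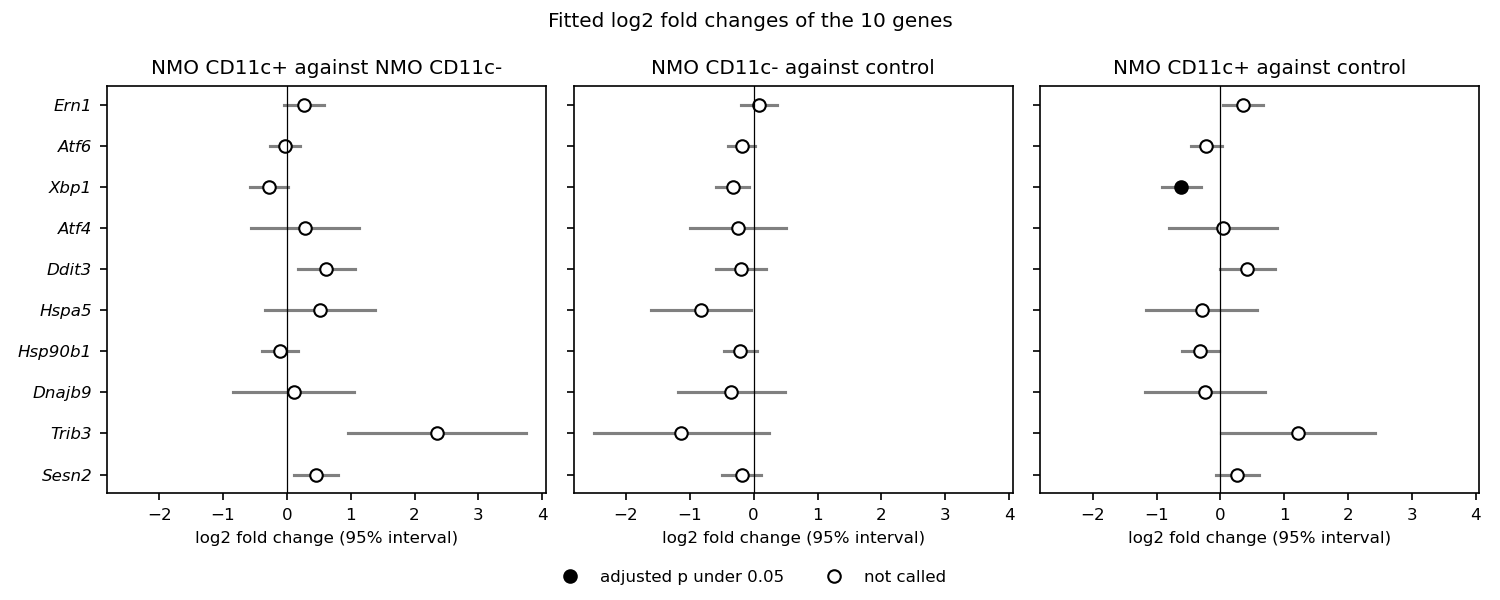
Fitted log2 fold change (horizontal axis) of each of the 10 genes (rows) in the 3 comparisons, with 95% intervals as lines. The filled point marks the 1 call, Xbp1 at -0.61 in NMO CD11c+ against control, and the widest intervals belong to Trib3, Dnajb9, Hspa5 and Atf4.

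Among themselves the members fell into steady and variable genes. The SD within groups, on the log2 CPM scale, was 0.68 for Dnajb9, 0.58 for Hspa5 and 0.58 for Atf4, larger than in 98.1%, 97.5% and 97.4% of the 9801 genes with a mean of at least 5 CPM. It was 0.26 for Ddit3, 0.17 for Ern1, 0.16 for Sesn2, 0.15 for Xbp1, 0.11 for Hsp90b1 and 0.084 for Atf6, and 0.56 for Trib3, which lies under 5 CPM. Hspa5, Atf4 and Dnajb9, but not Trib3, shared their 2 highest and 2 lowest libraries, though not the order within each pair. Their 2 highest values were in NMO CD11c+ replicate 2 and control replicate 1. Their 2 lowest were in NMO CD11c+ replicate 1 and NMO CD11c- replicate 1. The same 2 highest and 2 lowest libraries were found for 1.53% of all tested genes, and the same 2 highest, which Ddit3 and Sesn2 also had, for 3.79%.

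Immediate early genes, among them Fos, Jun and Egr1, respond within minutes to stimulation or tissue handling. The same 2 highest and 2 lowest libraries were found for 14 of 18 such genes, and the same 2 lowest for all 18. Their summed level, over 18 genes that include no member, was 12106 and 45242 CPM in NMO CD11c+, 10044, 18694 and 23894 CPM in NMO CD11c- and 55363, 28154 and 31666 CPM in control. The 2 highest and the 2 lowest libraries were those of Hspa5, Atf4 and Dnajb9. Cytosolic heat shock genes, summed over 13 genes, were at 1069 and 1568 CPM in NMO CD11c+, 790, 1166 and 1156 CPM in NMO CD11c- and 2877, 2072 and 2303 CPM in control. Of those 13, 5 were called lower in NMO CD11c- against control (all genes 0.717%) and 2 in NMO CD11c+ against control (all genes 3.36%), and none higher. Whether the immediate early level has a part in the member values was not tested.

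**Figure D3:**
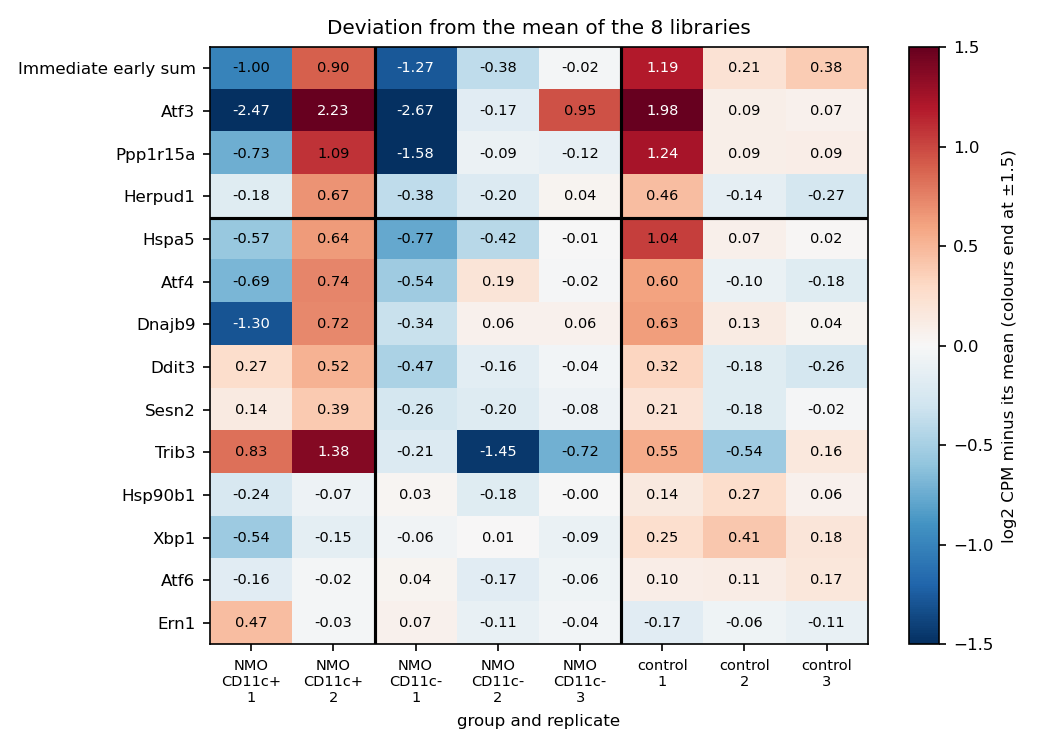
Deviation of log2 CPM from each row's mean over the 8 libraries (colour and number, colours ending at 1.5 either way), with the summed immediate early genes and Atf3, Ppp1r15a and Herpud1 above the line and the 10 members below it. Hspa5, Atf4 and Dnajb9 share the red cells of NMO CD11c+ 2 and control 1 and the blue cells of NMO CD11c+ 1 and NMO CD11c- 1 with the immediate early sum, while Hsp90b1, Xbp1 and Atf6 are red in the control columns.

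Beyond the members, 135 genes of the pathway were listed by role, and 124 of them could be tested. In NMO CD11c+ against NMO CD11c- 0 were called by the edgeR quasi-likelihood test, with 10 higher and 4 lower at an unadjusted p under 0.05 (all genes 7.9% and 7.54%). There, 1 (Rtcb) was called higher by DESeq2 and by the exact test. Calls in NMO CD11c- against control were 2 higher and 4 lower, where 3% and 0.717% of all tested genes were. Calls in NMO CD11c+ against control were 4 higher and 8 lower, where 6.85% and 3.36% of all tested genes were. Their median log2 fold changes were 0.06, -0.11 and -0.07 in these comparisons. In NMO CD11c- 46 of 124 lay below all control libraries (all genes 16.1%) against 7 above (all genes 17.6%). Leaving out NMO CD11c+ replicate 2 gave 18 higher and 15 lower between the NMO subsets, and 13 higher and 22 lower in NMO CD11c+ against control, where over all tested genes 11.5% and 12.7%, and 16.2% and 16.5%, were called in that fit. Leaving out any 1 control library gave 1 higher and 0 lower in each comparison with control. Over all tested genes, 1.03% to 1.23% were then called higher and 0.151% to 0.227% lower in NMO CD11c- against control. In NMO CD11c+ against control these shares were 3.24% to 3.47% and 0.857% to 0.981%. Without any 1 NMO CD11c- library, 0 or 1 pathway genes were lower in NMO CD11c- against control, where 0.252% to 0.344% of all tested genes were. Values given with ± are means and SD over 2 libraries of NMO CD11c+ and 3 of each other group.

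Rtcb, the ligase that joins the ends of cut Xbp1 mRNA, was called in both comparisons with control. It had 233 and 208 CPM in NMO CD11c+, 148, 154 and 145 CPM in NMO CD11c- and 102, 98.6 and 98.0 CPM in control. The 3 groups stood apart without overlap, in the reverse of the order seen for Xbp1. Rtcb rose in NMO CD11c+ against control by 1.15 on the log2 scale (SE 0.098, adjusted p = 0.000125) and in NMO CD11c- against control by 0.58 (SE 0.089, adjusted p = 0.00646). Both calls were kept under every alternative and without any 1 library, with values of 1.06 to 1.23 and 0.56 to 0.62. Between the NMO subsets, CD11c+ against CD11c-, it was 0.56 (SE 0.098, adjusted p = 0.0554) and missed the threshold, which it passed with the GC and length correction (0.51, 0.0182). It shares 28 exon bases with Ascl4 on the opposite strand, which had 16 counts in all. Of the other partners of IRE1, Bax, the pore-forming death effector that binds IRE1, was called higher in NMO CD11c+ against control (77.8 ± 37.0 CPM, n = 2, against 40.8 ± 5.70 CPM, n = 3, SD; 0.93, SE 0.253, adjusted p = 0.0453), with 104 and 51.6 CPM in its NMO CD11c+ libraries. The value was 0.34 without NMO CD11c+ replicate 1 (adjusted p = 0.312), 1.34 without replicate 2 (adjusted p = 0.000552) and 0.47 with the GC and length correction (adjusted p = 0.0965). Its adjusted p was 0.0524 to 0.147 without any 1 library of NMO CD11c- or control and 0.0513 with library-size scaling.

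Of the 9 genes listed with the eIF2alpha kinases and phosphatase, among them Eif2s1 and Eif2b5, Eif2ak2 rose in NMO CD11c- against control. Eif2ak2 encodes PKR, the kinase activated by double-stranded RNA and itself induced by interferon, and it had 65.4 and 108 CPM in NMO CD11c+, 104, 112 and 100 CPM in NMO CD11c- and 54.2, 54.2 and 65.4 CPM in control. NMO CD11c+ replicate 2 lay among the NMO CD11c- libraries and replicate 1 at the level of control replicate 3. The value in NMO CD11c- against control was 0.87 (SE 0.164, adjusted p = 0.0191). The value in NMO CD11c+ against control was 0.58 (SE 0.184, adjusted p = 0.0700), not a call by the quasi-likelihood test. It was called higher there by DESeq2 (adjusted p = 0.0325), by the exact test (0.0289), with no low-count filter (0.00570), with the GC and length correction (0.75, 0.00517) and without NMO CD11c+ replicate 1 (0.89, 0.00237). With NMO CD11c+ replicate 2 left out it was 0.17 (0.345). Eif2ak3, which encodes PERK, was at 71.1 ± 6.35 CPM in NMO CD11c+ (SD, n = 2), 72.4 ± 7.01 CPM in NMO CD11c- and 82.7 ± 2.32 CPM in control (SD, n = 3 each) and was not called. Dnajc3, which encodes p58IPK, an inhibitor of PERK and PKR and an ERSE gene, fell in NMO CD11c+ against control (131 ± 11.2 CPM against 179 ± 17.0 CPM, -0.45, SE 0.122, adjusted p = 0.0453). Ppp1r15a, the regulatory subunit of the eIF2alpha phosphatase, had the same 2 highest and 2 lowest libraries as the immediate early sum. It had 258 and 907 CPM in NMO CD11c+, 143, 401 and 393 CPM in NMO CD11c- and 1008, 454 and 456 CPM in control. It was not called in any comparison (adjusted p between 0.312 and 0.900). With no low-count filter it was called higher in NMO CD11c+ against NMO CD11c- (0.88, adjusted p = 0.00502) and lower in NMO CD11c- against control (-1.05, 2.61e-05).

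The 26 genes of the ATF4 and CHOP programme, of which 20 were tested, gave 0 calls in each comparison by the edgeR quasi-likelihood test. At an unadjusted p under 0.05, 3, 2 and 2 were higher (all genes 7.9%, 11.7% and 15.6%) and 1, 3 and 1 lower (7.54%, 7.02% and 13.2%). DESeq2 called 1, Slc7a5, lower in NMO CD11c- against control, and the exact test called Slc7a5 there and Slc1a5 and Nupr1 higher in NMO CD11c+ against control. Their median log2 fold change was 0.23 in NMO CD11c+ against NMO CD11c-, -0.12 in NMO CD11c- against control and 0.11 in NMO CD11c+ against control. Atf3, a stress-induced repressor, had 72.7 and 1898 CPM in NMO CD11c+, 63.3, 360 and 781 CPM in NMO CD11c- and 1589, 428 and 423 CPM in control. Its libraries thus differed more within NMO CD11c+ than between groups, and its 2 highest and 2 lowest were those of the immediate early sum. Its adjusted p was between 0.571 and 0.897. With no low-count filter it was 0.0175 for NMO CD11c+ against NMO CD11c- and 0.0324 for NMO CD11c- against control. Asns, asparagine synthetase and a textbook ATF4 target, was at 1.96 ± 0.464 CPM in NMO CD11c+, 3.19 ± 1.42 CPM in NMO CD11c- and 2.67 ± 1.31 CPM in control (SD). Chac1, a glutathione-degrading target of ATF4, was under the limit for testing, with 4 counts in NMO CD11c+, 27 in NMO CD11c- and 5 in control, 18 of the 27 in 1 library. The smallest adjusted p values of this list were 0.172 for Cebpg in NMO CD11c+ against NMO CD11c- (-0.47), 0.0855 for Slc7a5 in NMO CD11c- against control (-0.48) and 0.0519 for Nupr1 in NMO CD11c+ against control (0.48). The 12 aminoacyl-tRNA synthetases, another group of ATF4 targets, gave 0 calls in each comparison by the quasi-likelihood test and by DESeq2, while the exact test called Yars lower against control in both NMO groups. At an unadjusted p under 0.05, 0, 6 and 4 of them were lower (all genes 7.54%, 7.02% and 13.2%) and none higher (all genes 7.9%, 11.7% and 15.6%). All 12 estimates in NMO CD11c- against control were negative, between -0.34 and -0.036, as were 92 of all 124 tested pathway genes. For 8 of the 12 the libraries did not overlap (all genes 16.1% in the lower direction). Yars had the smallest adjusted p there (-0.32, 0.0775).

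The ER folding machinery gave the most calls in NMO CD11c- against control, 0 higher and 3 lower of 23 tested (all genes 3% and 0.717%). Manf, a secreted ER stress protein that binds BiP, had 67.2 and 68.5 CPM in NMO CD11c+, 60.2, 58.0 and 62.6 CPM in NMO CD11c- and 83.6, 86.6 and 82.9 CPM in control. Every NMO library was below every control library, and NMO CD11c- was lowest. Manf fell by 0.49 on the log2 scale in NMO CD11c- against control (-0.49, SE 0.082, adjusted p = 0.0112), and the value in NMO CD11c+ against control was -0.31 (SE 0.093, adjusted p = 0.0596). Its exons share 146 bases with Dcaf1 on the opposite strand and 14 with Rbm15b. Sdf2l1, a BiP cofactor, had 59.4 and 51.8 CPM in NMO CD11c+, 45.3, 50.9 and 46.4 CPM in NMO CD11c- and 61.9, 64.7 and 62.2 CPM in control. It fell in NMO CD11c- against control (-0.40, SE 0.096, adjusted p = 0.0472). Txndc11, a thioredoxin-like ER protein, fell in NMO CD11c- (-0.39, SE 0.088, adjusted p = 0.0419) and in NMO CD11c+ (-0.41, SE 0.101, adjusted p = 0.0322) against control, at 67.9 ± 4.55, 69.0 ± 1.98 and 90.1 ± 5.06 CPM in NMO CD11c+, NMO CD11c- and control (SD). Calr, the calcium-binding lectin chaperone with the ERSE site printed above, had 790 and 807 CPM in NMO CD11c+, 760, 683 and 779 CPM in NMO CD11c- and 1084, 1020 and 802 CPM in control, and its value of -0.39 in NMO CD11c- against control was not called by the quasi-likelihood test (SE 0.131, adjusted p = 0.141) but was by DESeq2 (adjusted p = 0.0437). Pdia4, a disulfide isomerase, was at 159 ± 37.1, 139 ± 12.3 and 162 ± 16.2 CPM in NMO CD11c+, NMO CD11c- and control (SD) and was not called.

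ER-associated degradation held 1 call in each direction among 20 tested genes, both in NMO CD11c+ against control (all genes 6.85% higher and 3.36% lower). Os9, a lectin that hands misfolded glycoproteins to the degradation complex, rose (489 ± 153 CPM against 309 ± 17.5 CPM, 0.66, SE 0.167, adjusted p = 0.0349), with 597 and 381 CPM in NMO CD11c+ against 319, 320 and 289 CPM in control. Its value was 0.30 without NMO CD11c+ replicate 1 and 0.95 without replicate 2. Edem3, a mannosidase of the same step, fell (68.2 ± 5.99 CPM against 96.4 ± 5.63 CPM, -0.50, SE 0.119, adjusted p = 0.0279). Herpud1, an ER membrane protein with both an ERSE-II and a C/EBP-ATF element, had 216 and 388 CPM in NMO CD11c+, 187, 212 and 250 CPM in NMO CD11c- and 335, 222 and 203 CPM in control, and was not called (adjusted p between 0.391 and 0.675). Its 2 highest libraries were those of Hspa5. Of the 124 tested pathway genes 7 had that pair highest (5.65%, all genes 3.79%). In 4 of the 124 the 2 lowest libraries were those of Hspa5 as well (3.23%, all genes 1.53%).

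Protein translocation and entry to secretion gave 1 call higher and 5 lower among 22 tested genes in NMO CD11c+ against control (all genes 6.85% and 3.36%), and 1 lower in NMO CD11c- against control (all genes 0.717%). Sec23b, a coat protein of vesicles leaving the ER, fell in both, to 46.1 ± 2.81 CPM in NMO CD11c+ and 48.8 ± 3.84 CPM in NMO CD11c- against 65.7 ± 3.16 CPM in control (SD; -0.51, SE 0.112, adjusted p = 0.0203, and -0.43, SE 0.097, adjusted p = 0.0398). Ssr1, a subunit of the translocon-associated complex, fell in NMO CD11c+ against control (-0.60, SE 0.151, adjusted p = 0.0336), as did Spcs2, a subunit of the signal peptidase (-0.45, SE 0.111, adjusted p = 0.0329). Ssr4, another subunit of the translocon-associated complex, rose (99.5 ± 13.5 CPM against 68.2 ± 3.96 CPM, 0.54, SE 0.114, adjusted p = 0.0169). Members of 1 complex were thus called in opposite directions. The ATF6 family and site proteases gave 0 calls among 10 tested genes by the edgeR quasi-likelihood test in each comparison, and 0 by DESeq2 or the exact test. At an unadjusted p under 0.05 of the quasi-likelihood test, 0, 1 and 1 were lower (all genes 7.54%, 7.02% and 13.2%) and none higher.

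Apart from the 2 calls of Rtcb, no pathway call held without every single library. In NMO CD11c- against control, Eif2ak2 and Manf lost theirs without NMO CD11c- replicate 1 or 2 or any 1 control library, at an adjusted p of up to 0.11 and 0.0675. Sdf2l1, Txndc11 and Sec23b lost theirs without any 1 of the 6 libraries compared, at up to 0.185, 0.186 and 0.16. In NMO CD11c+ against control, Dnajc3, Edem3, Os9, Ssr1, Ssr4, Spcs2, Sec23b and Txndc11 lost theirs without any 1 control library, and all of these but Txndc11 also without NMO CD11c+ replicate 1, at up to 0.142, 0.0957, 0.123, 0.104, 0.0763, 0.113, 0.0809 and 0.113. Dnajc3, Os9, Ssr1 and Txndc11 also lost theirs without NMO CD11c- replicate 1 or 3, and Edem3 and Spcs2 without replicate 3. All 8 lost them in a fit of NMO CD11c+ and control alone (0.058 to 0.106). Scaling by upper quartile ended the calls of Sdf2l1 (0.0555) and Txndc11 (0.0504) in NMO CD11c- and of Dnajc3 (0.0527) in NMO CD11c+, and library-size scaling those of Sdf2l1 (0.0848), Txndc11 (0.0763) and Sec23b (0.0617) in NMO CD11c-. The GC and length correction ended those of Dnajc3 (-0.23, adjusted p = 0.15), Edem3 (-0.30, 0.0759) and Sec23b (-0.22, 0.232) in NMO CD11c+ against control. There, the same correction gave calls for Manf (-0.36, 0.0157) and Sdf2l1 (-0.53, 0.00211), which the test without it did not. Ssr1 was -0.36 without NMO CD11c+ replicate 1 and -0.90 without replicate 2.

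**Figure D4:**
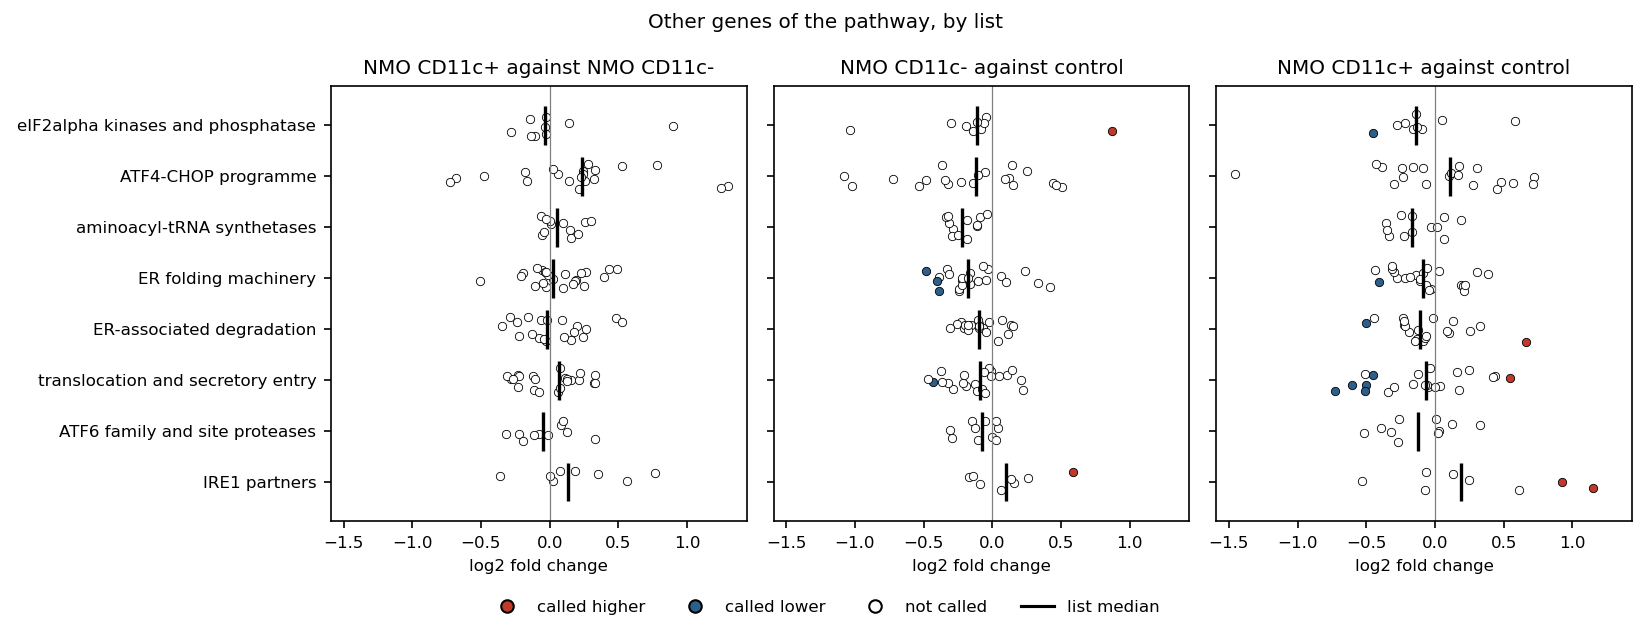
Fitted log2 fold change (horizontal axis) of every tested gene of 8 lists (rows) in the 3 comparisons, with list medians as bars and called genes filled. In NMO CD11c- against control most medians lie left of 0, and the rightmost filled points in NMO CD11c+ against control are Rtcb (1.15) and Bax (0.93).

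Among the members and the listed pathway genes, 9 had an ERSE in a window, 2 of them members. Over all genes 39 windows held ERSE, and genes outside these lists were not followed. Of the 9, 8 could be tested (Derl3 could not, with 11, 15 and 30 counts in NMO CD11c+, NMO CD11c- and control). Estimates of these 8 were negative for 8 of 8 in NMO CD11c- against control, with a median log2 fold change of -0.28. Of all 124 tested pathway genes 92 were negative there, with a median of -0.11. In NMO CD11c+ against control 7 of the 8 were negative (median -0.29), beside 76 of the 124 (-0.07). Between the NMO subsets, CD11c+ against CD11c-, 5 were positive and 3 negative (median 0.18), beside 69 and 55 of the 124 (0.06). Dnajc3 in NMO CD11c+ against control was the 1 call among the 8 ERSE genes by the edgeR quasi-likelihood test. DESeq2 called Calr lower in NMO CD11c- against control (adjusted p = 0.0437) and Canx lower in NMO CD11c+ against control (-0.43, 0.00526). A fit of NMO CD11c- and control alone called Pdia6 (0.0344) and Syvn1 (0.0299) lower. Their values in NMO CD11c- against control were -0.82 for Hspa5, -0.39 for Calr, -0.33 for Pdia6, -0.30 for Dnajc3, -0.26 for Syvn1, -0.24 for Canx, -0.22 for Creld2 and -0.21 for Hsp90b1, with adjusted p between 0.141 and 0.400. Hspa5 stood apart in its spread, at an SD within groups of 0.58 against 0.109 to 0.160 for the other 7.

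The genes nearest to each member in pattern were found by the root mean square difference, over the 8 libraries, between log2 CPM values centred on each gene's mean. Hsp90b1 had the closest neighbours, Pgrmc1 at 0.013 and Pdia3 at 0.033, against its own root mean square deviation of 0.157. Xbp1 was nearest to Dapp1 (0.051) and Stau2 (0.057), Atf6 to Trim36 (0.032) and Tollip (0.036), and Ern1 to 2510039O18Rik (0.045) and Daglb (0.048). Ddit3 was nearest to Nfkbib (0.061) and Sqstm1 (0.106), and Sesn2 to Bcas2 (0.082) and Ccl6 (0.103). Hspa5 was nearest to Kdm6b (0.140) and Mcl1 (0.142), Atf4 to Rgs2 (0.117) and Rps27 (0.156), and Dnajb9 to Ddx5 (0.141) and Ccnl1 (0.147). These differences were larger, but so were the genes' own deviations, at 0.568, 0.467 and 0.584. The own deviation was 0.188 for Ern1, 0.119 for Atf6, 0.272 for Xbp1, 0.316 for Ddit3 and 0.213 for Sesn2. The differences were not scaled by it, so closeness cannot be compared between variable and steady members. Trib3, at few counts, was 0.547 from Aplf and 0.567 from Cbarp.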

How the data were processed

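The values are whole-number counts per gene, 1 file per library, as deposited by the authors. The tools named per the submitters' processing notes are STAR, HTSeq 0.5.4 and edgeR 3.12.0, with the build GRCm38. No source used here gives the annotation release or the strand setting. Symbols, positions and exon lengths came from GENCODE M21 (40254 identifiers matched, 1134 did not, with 0.155% of counts), and 0 rows named no gene.

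Counts were tested in R 4.3.3 with edgeR 4.0.16 (filterByExpr, minimum count 10, TMM scaling, glmQLFit and glmQLFTest, limma 3.58.1). The 8 libraries shared 1 fit (residual degrees of freedom 5, prior 5.08, common dispersion 0.0223), from which pairs of group means were contrasted. CPM use the TMM-scaled library size. Intervals are 95% and cover the spread between libraries. Simulated counts with planted changes were used to check the scripts. Replicate libraries differed by far more than sampling noise, and none was counted as a repeat.

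Named genes were every member, 11 set pathway genes and per list and comparison up to 4 called genes with the smallest adjusted p, or the 1 smallest where none was called. The 10 members and all lists were chosen with earlier results of these data known. Alternatives were RLE, upper-quartile and library-size scaling, no filter, a minimum count of 30, the edgeR exact test, DESeq2 1.42.0, a fit of the 2 compared groups alone, a correction for GC content and length (99.53% of tested genes have both values) and each library left out. Reads, splicing and protein were not analysed here. Promoter letters are RefSeq's (GRCm38.p6). The level of 1 marker gene is not reported here.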

Additional observations from a re-analysis of the deposited data

How the results depend on the processing

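No paired analysis was possible because the labels give no replicate numbers shared between groups and tie no libraries to 1 mouse. Of the single-member log2 fold changes under other settings than a left-out library, 257 kept direction and side of the threshold, 5 gained a call, 1 lost it and 3 reversed sign, none of them called: with the GC and length correction Atf6 was 0.074 and Hsp90b1 0.12 in NMO CD11c+ against NMO CD11c-, and Atf4 was -0.077 in NMO CD11c+ against control. The cause was not tested.

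Without a low-count filter, all-gene calls were 264 higher and 443 lower (main 12 and 22) in NMO CD11c+ against NMO CD11c-, 841 and 316 (360 and 86) in NMO CD11c- against control, and 1083 lower (403) in NMO CD11c+ against control. Members then gave 2 higher (Ddit3, Trib3) in the first and 1 lower (Hspa5) in the second, and pathway genes 6 higher and 1 lower, 8 lower, and 7 higher and 14 lower. A minimum count of 30 gave 1 pathway gene higher in the first.

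DESeq2 gave 107 and 161, 559 and 137, and 636 lower in the third, with 1 pathway gene higher in the first and 13 lower in the third. The exact test gave 125 and 180, 689 and 192, and 707 lower, with 1 member and 1 pathway gene higher in the first and 7 pathway genes higher in the third. The GC and length correction gave 30 and 38, and 658 and 237, with 1 pathway gene higher in the first, 13 lower in the second, and 7 higher and 13 lower in the third. Only the 2 groups compared gave 2 and 3, 803 and 418, and 466 and 161, with 1 member lower (Xbp1) and 15 pathway genes lower in the second, and 0 members lower, 1 pathway gene higher and 0 lower in the third. Pathway genes lower in the second were 2 with upper-quartile and 1 with library-size scaling.

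Leaving out 1 library gave, in NMO CD11c+ against NMO CD11c-, 3 to 1435 genes higher and 0 to 1581 lower, 0 to 1 members higher and 0 to 2 lower, and 0 to 18 pathway genes higher and 0 to 15 lower. The upper ends came from leaving out NMO CD11c+ replicate 2. In NMO CD11c- against control it gave 123 to 788 higher and 18 to 405 lower, 0 members higher and 0 to 1 lower, and 1 to 3 pathway genes higher and 0 to 15 lower. In NMO CD11c+ against control it gave 385 to 2019 higher and 102 to 2058 lower, 0 to 1 members higher and 0 to 3 lower, and 1 to 13 pathway genes higher and 0 to 22 lower, with the upper ends again without NMO CD11c+ replicate 2. Member values that changed sign ranged, in NMO CD11c+ against NMO CD11c-, from -0.0069 to 0.49 for Ern1, -0.11 to 0.037 for Atf6, -0.60 to 0.83 for Atf4, -0.20 to 1.01 for Hspa5 and -1.25 to 0.78 for Dnajb9. They ranged from -0.40 to 0.047 for Atf4 and -0.31 to 0.0044 for Ddit3 in NMO CD11c- against control, and from -0.85 to 0.58 for Atf4, -1.03 to 0.18 for Hspa5 and -1.60 to 0.43 for Dnajb9 in NMO CD11c+ against control. A group left with 1 library was assumed to vary like the others. The NMO CD11c+ group has 2 libraries, one of which carries a GC trend, and a value that misses the threshold does not show that the groups were alike.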
